A study of Mus musculus with 9 samples.

Results

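The 40 genes described here encode the aminoacyl-tRNA synthetases of the cytosol and of the mitochondrion, together with 3 non-enzymatic proteins of the cytosolic multi-synthetase complex. They are the protein-coding rows among 54532 genes whose symbol follows the synthetase naming pattern, plus Farsa, Farsb, Eprs, Aimp1, Aimp2 and Eef1e1. Of these, 23 belong to the cytosolic set (11 complex members and 12 free enzymes) and 17 to the mitochondrial set, whose symbols end in 2; Aimp2 is a complex protein and was counted as cytosolic. Messenger RNA was sequenced from RENCA, a mouse renal carcinoma line, with 3 libraries in each group. All cells grew in RPMI with serum and added amino acids. The empty-vector cells carry the genotype label WT. The knockout cells (NDUFA4L2 -/-) were grown as single-cell colonies after Cas9 editing of Ndufa4l2, the gene of a small mitochondrial protein. Rescue cells (labelled NDUFA4L2 +/+) are the knockout line infected with a lentivirus that expresses the gene and kept under puromycin. The sources used here give neither the number of clones sequenced nor any cloning of the empty-vector cells. Loss of the gene and clone choice therefore cannot be told apart, nor can, in rescue, the gene, the virus and the drug. The labels do not tie the libraries of a group to separate cultures, and a p-value then stands only for the scatter among these libraries, possibly a technical one.

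Aminoacyl-tRNA synthetases attach each amino acid to its own tRNA, the step that fixes the genetic code before the ribosome reads it. The cytosol and the mitochondrion mostly use separate enzymes encoded by separate nuclear genes, while Gars and Kars serve both compartments from a single gene. In the cytosol a group of synthetases is held in a large complex by the scaffold proteins Aimp1, Aimp2 and Eef1e1. When amino acids run short, the kinase Eif2ak4 senses uncharged tRNA and the transcription factor Atf4 raises many cytosolic synthetase genes. Mitochondrial synthetases charge the tRNAs that translate the mitochondrially encoded respiratory-chain subunits.

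Total counts per library ranged from 13106531 to 26643877. Levels are in CPM, a gene's count scaled to the total of its library, with totals corrected by TMM, a method that aligns the bulk of genes between libraries. A gene was called when its edgeR quasi-likelihood p, adjusted by Benjamini-Hochberg over the 13326 genes tested, was under 0.05. Ndufa4l2 had 12, 6 and 16 counts in empty vector, 7, 8 and 6 in knockout and 73, 48 and 35 in rescue, so its level marks the rescue libraries but does not separate knockout from empty vector. Genes of the mitochondrial genome, often read as a mark of RNA quality, took 2.16% to 3.17% of counts in empty vector, 5.79% to 7.93% in knockout and 2.235% to 2.65% in rescue. Of 10 renal epithelial markers, 8 reached 1 CPM, while Krt19 and Epcam had at most 1 count in any library. The sum of the 10 ran from 957 to 1181 CPM in empty vector, 1601 to 1717 in knockout and 1288 to 1346 in rescue. Cdh16 and Krt8 made up most of it, and not all markers followed it. Pax8 ran from 232 to 240 CPM in empty vector, 92.2 to 106 in knockout and 151 to 177 in rescue. Cdh1 ran from 9.97 to 15.4, from 93.4 to 109 and from 1.95 to 2.79 CPM. Of 10 leukocyte markers, 4 reached 1 CPM, and Cd3e, Itgam and Adgre1 had 0 counts in all 9 libraries. The summed leukocyte level ran from 78.3 to 84.0 CPM in empty vector, from 211 to 228 in knockout and from 39.0 to 44.4 in rescue, nearly all of it Cd68, with 72.2 to 79.1, 194 to 213 and 33.6 to 39.5 CPM. Of 7 endothelial and fibroblast markers, 2 reached 1 CPM and Kdr was at 0, with sums of 26.6 to 33.7, 60.1 to 71.6 and 28.4 to 30.6 CPM. The part of these differences in the results below was not tested. When library totals alone set the scale, the median log2 change of all genes moved from -0.0211 to -0.175 in knockout against empty vector and from 0.033 to 0.217 in rescue against knockout. The share of calls that were higher then moved from 48.7% to 34.4% and from 51.9% to 69.6%.

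All 40 genes were expressed and passed the filter on low counts, with no fewer than 101 counts in any library. Their median level was 110 CPM against 27.9 CPM for all genes tested, so small changes were easier to call in them than in a typical gene. Per gene length, on the deposited FPKM scale, cytosolic members had a median level of 57.5 in empty vector and mitochondrial members one of 7.43. Asparaginyl-tRNA synthetase, Nars, was the highest in empty vector at 280.1 ± 3.71 FPKM (SD, n = 3). Tryptophanyl-tRNA synthetase, Wars, followed at 158 ± 2.93, and then glycyl-tRNA synthetase, Gars, at 143 ± 35.1 and valyl-tRNA synthetase, Vars, at 142 ± 16.4, which did not differ beyond their spread. At the low end stood the mitochondrial enzymes Nars2 at 2.67 ± 0.0912 and Pars2 at 2.33 ± 0.227 FPKM. The most abundant mitochondrial members were Lars2 (28.3 ± 5.69) and Yars2 (28.3 ± 0.952), above the cytosolic Qars at 14.5 ± 1.79. In knockout the highest levels were those of Nars (177 ± 9.49) and Gars (176 ± 6.01), and in rescue again Nars (239 ± 12.9) and Gars (222 ± 7.04).

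**Figure D1:**
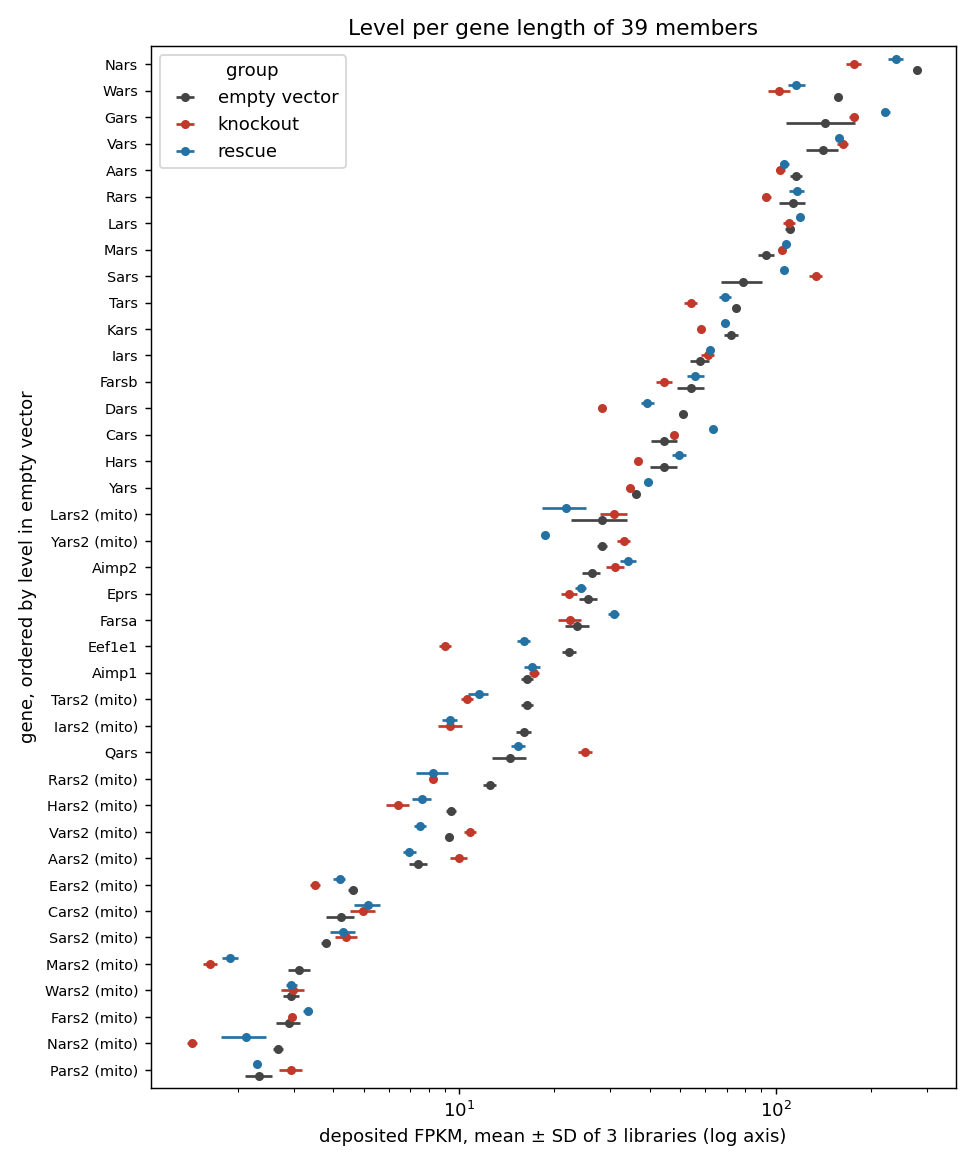
Deposited FPKM of 39 of the 40 genes (log axis) in empty vector, knockout and rescue, ordered by the level in empty vector; points are means and bars SD of 3 libraries. Cytosolic genes run from Nars at 280.1 down to Qars at 14.5, and mitochondrial genes start within that range with Lars2 and Yars2 at 28.3 and take the places below Qars.

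Promoter sequence was looked at for an element through which Atf4 and C/EBP proteins act on synthetase genes (TGATGNAA) and for the interferon response element (GAAA, any 2 bases, GAAA), each on both strands in the 250 bases before the RefSeq start (build GRCm38.p6). RefSeq windows were matched for 29 of the 40 genes. Of the 12 cytosolic synthetases known as Atf4 targets, 7 were matched. Cars, Lars, Mars, Nars and Wars had no window, so neither motif was searched for before them. The Atf4 letters stood before Aars, Gars and Tars and before none of the 14 matched mitochondrial genes, against 3.91% of all 27025 genes with a window. Interferon letters were found before Qars alone among the matched members, against 3.46% of all genes. With the 50 bases after the start included, Iars and Yars also held the Atf4 letters (4.51% of all genes). Qars remained the one matched member with the interferon letters (3.99%). Shown are these 4 windows and that of Eef1e1, the gene with the largest change below; capitals mark a match, and the matches of the 2 motifs do not overlap.
Aars (chr8:111033592-111033841, plus strand): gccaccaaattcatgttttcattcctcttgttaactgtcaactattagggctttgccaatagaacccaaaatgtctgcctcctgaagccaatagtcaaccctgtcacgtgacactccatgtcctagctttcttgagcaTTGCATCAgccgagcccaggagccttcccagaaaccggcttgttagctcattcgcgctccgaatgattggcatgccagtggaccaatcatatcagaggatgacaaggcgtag
Gars (chr6:55037751-55038000, plus strand): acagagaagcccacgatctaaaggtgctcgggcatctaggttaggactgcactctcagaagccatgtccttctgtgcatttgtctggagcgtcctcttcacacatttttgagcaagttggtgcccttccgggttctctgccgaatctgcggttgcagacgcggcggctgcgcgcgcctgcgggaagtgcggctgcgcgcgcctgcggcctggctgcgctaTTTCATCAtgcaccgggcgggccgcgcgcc
Tars (chr15:11399659-11399908, minus strand): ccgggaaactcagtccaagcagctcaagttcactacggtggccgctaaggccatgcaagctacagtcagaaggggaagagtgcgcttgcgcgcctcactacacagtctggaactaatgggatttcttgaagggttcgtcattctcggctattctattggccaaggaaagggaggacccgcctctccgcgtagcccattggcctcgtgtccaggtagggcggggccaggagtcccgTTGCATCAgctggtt
Qars (chr9:108507755-108508004, plus strand): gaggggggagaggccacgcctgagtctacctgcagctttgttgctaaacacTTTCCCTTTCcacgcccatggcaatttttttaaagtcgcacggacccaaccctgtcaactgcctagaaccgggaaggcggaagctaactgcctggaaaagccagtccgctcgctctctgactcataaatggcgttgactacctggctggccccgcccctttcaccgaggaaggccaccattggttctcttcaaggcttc
Eef1e1 (chr13:38659029-38659278, minus strand): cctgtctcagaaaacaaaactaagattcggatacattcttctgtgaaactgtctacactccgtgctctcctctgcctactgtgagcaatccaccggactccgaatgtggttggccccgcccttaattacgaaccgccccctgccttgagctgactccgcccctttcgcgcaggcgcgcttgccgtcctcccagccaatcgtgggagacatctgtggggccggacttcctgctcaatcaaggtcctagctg
A match is a run of letters and not a measured binding site. The match began 112 bases before the start in Aars, 30 in Gars, 15 in Tars and 199 in Qars, each time on the opposite strand, and the Eef1e1 window held neither motif.

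In knockout against empty vector the family moved in both directions. Of 23 cytosolic members 11 fell and 5 rose, with a median log2 change of -0.09, and of 17 mitochondrial members 8 fell and 5 rose, with a median of 0.01. Among all genes tested the median was -0.02, 31.1% were called lower and 29.5% higher, while 60.6% were called in either direction, against 29 of the 40 members. Thus the 47.8% of cytosolic and 47.1% of mitochondrial members that fell lay above the background and the shares that rose (21.7% and 29.4%) lay below or near it. With library totals alone the mitochondrial median turned to -0.148 and the cytosolic one to -0.238, with 14 cytosolic members called lower. Most changes were small: called members moved by 0.16 to 1.32 log2 units, and Eef1e1 was the one member past a halving. By library, the summed level of the cytosolic set was 8584, 7782 and 7970 CPM in empty vector, then 7647, 7344 and 7805 in knockout and 8167, 8485 and 8586 in rescue. In rescue against knockout 13 cytosolic members rose and 2 fell (median 0.20), while the mitochondrial members split 5 to 5 (median 0.01). With library totals alone the cytosolic split was 21 to 1 (median 0.382) and the mitochondrial one 9 to 3 (median 0.192), so the even split depends on the scaling. Of all 40 members 25 were called, against 56.8% of all genes, of which 29.5% were higher and 27.3% lower, with a median of 0.03. In rescue against empty vector 6 cytosolic members rose and 4 fell (median 0.08), and 8 mitochondrial members fell and only Cars2 rose (median -0.31); the difference between the 2 sets was not tested. Over fits that leave out 1 library the cytosolic median ran from 0.0212 to 0.151, and without empty-vector replicate 1 the number that rose was 12. Here 19 of the 40 were called, against 47.5% of all genes, of which 22.4% were higher and 25.1% lower, with a median of -0.02. The libraries of the compared groups did not overlap for 9 members on the higher and 20 on the lower side in knockout against empty vector, where 63.7% of all genes were apart (30.8% higher and 32.8% lower). In rescue against knockout this held for 21 and 7 members (65.3% of all genes, 34.6% and 30.7%), and in rescue against empty vector for 11 and 15 (55.1%, 26.5% and 28.6%). Each comparison shares a group with the other 2, so their values are given side by side and not as separate evidence.

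**Figure D2:**
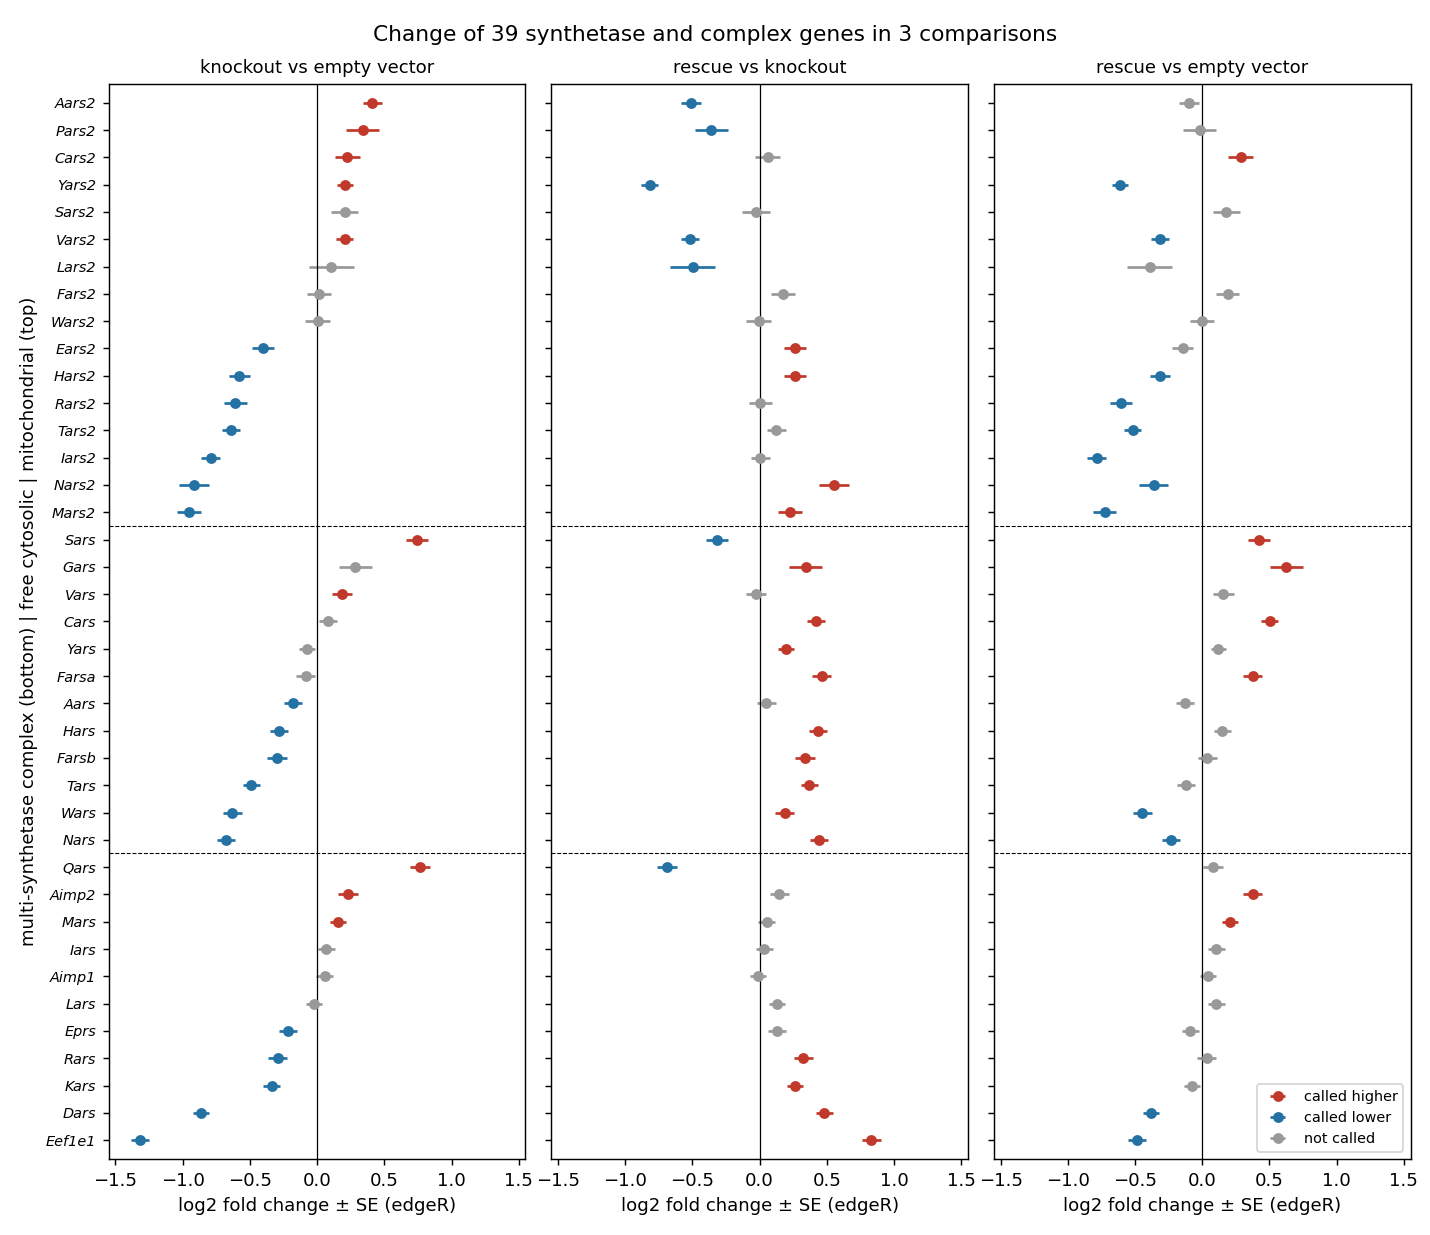
Log2 fold change with its standard error for 39 of the 40 genes in the 3 comparisons, grouped into complex members, free cytosolic enzymes and mitochondrial enzymes; red and blue mark genes called higher and lower, grey those not called. Changes run from -1.32 for Eef1e1 in knockout to 0.83 for the same gene in rescue against knockout, and the mitochondrial block of rescue against empty vector holds 8 blue points and 1 red point.

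Eef1e1, the smallest scaffold of the complex, had the largest change of all members in knockout against empty vector. In the order of the replicate numbers, here and below, it was at 71.8, 70.7 and 77.7 CPM in empty vector, at 29.6, 28.0 and 30.6 in knockout and at 50.8, 55.3 and 51.4 in rescue. The 3 groups did not overlap, with rescue in between. With knockout the level of Eef1e1 fell to 0.401 times that of empty vector, a log2 change of -1.32 ± 0.07 (SE, edgeR adjusted p = 6.75e-12). It rose in rescue against knockout by 0.83 ± 0.07 (edgeR adjusted p = 4.84e-09) and stayed lower than in empty vector (-0.49 ± 0.06, edgeR adjusted p = 5.41e-06). The other scaffolds did not move this way. Aimp1, also known as a secreted cytokine precursor, was at 92.9, 89.1 and 96.6 CPM in empty vector, at 96.8, 92.8 and 99.9 in knockout and at 92.1, 102 and 93.3 in rescue, with overlapping groups and no call in any comparison. With library totals alone Aimp1 was called higher in rescue against knockout, at 0.17. Aimp2 was at 46.7, 42.4 and 42.6 CPM in empty vector, at 47.4, 53.4 and 53.7 in knockout and at 54.6, 60.8 and 55.8 in rescue. It rose by 0.23 ± 0.07 in knockout (edgeR adjusted p = 0.00929; 0.0522 without knockout replicate 3, 0.0555 without the low-count filter and 0.374 with library totals alone, at 0.08) and by 0.38 ± 0.07 in rescue against empty vector (edgeR adjusted p = 0.000221). The Aimp2 gene overlaps the stress kinase gene Eif2ak1 on the other strand over 1548 bases, and no source used here says whether reads were assigned by strand. Eif2ak1 changed by 0.24 ± 0.07 in knockout and by -0.28 ± 0.07 in rescue against knockout, where Aimp2 had 0.15 ± 0.07 and was not called (edgeR adjusted p = 0.0864). Without the filter or with library totals alone Aimp2 was called there, at 0.19 and 0.33.

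Among the 8 synthetases of the complex 4 fell and 2 rose in knockout, where 31.1% of all genes were called lower and 29.5% higher. Aspartyl-tRNA synthetase, Dars, was at 214, 231 and 229 CPM in empty vector, at 120.5, 122 and 128 in knockout and at 163, 178 and 176 in rescue. All 3 groups were apart: Dars fell by 0.86 ± 0.06 log2 units in knockout (edgeR adjusted p = 5.05e-10), rose by 0.48 ± 0.06 in rescue against knockout (edgeR adjusted p = 1.49e-06) and remained below empty vector (-0.38 ± 0.06, edgeR adjusted p = 3.61e-05). Glutaminyl-tRNA synthetase, Qars, went the other way. Its libraries stood at 109, 88.4 and 91.8 CPM in empty vector, at 157, 161 and 174 in knockout and at 106, 96.1 and 103 in rescue. Knockout was above both other groups, which overlapped. Qars rose in knockout by 0.77 ± 0.07 (edgeR adjusted p = 3.53e-08) and fell in rescue against knockout by 0.69 (SE 0.07, edgeR adjusted p = 1.7e-07), and in rescue against empty vector it was not called (0.08 ± 0.07, edgeR adjusted p = 0.408; 0.00972 without empty-vector replicate 1). Eprs, the fused enzyme for glutamate and proline, was at 499, 458 and 449 CPM in empty vector, at 427, 387 and 395 in knockout and at 423, 455 and 447 in rescue. All knockout libraries of Eprs lay below those of empty vector, by 0.22 ± 0.07 log2 units (edgeR adjusted p = 0.0083). Rescue replicates 1 and 3 did so too, but replicate 2 overlapped empty vector, and rescue was not called against it (-0.09 ± 0.07, edgeR adjusted p = 0.301). Kars, for lysine, and Rars, for arginine, fell in knockout by 0.34 and 0.29 and rose in rescue against knockout by 0.26 and 0.33. Iars and Lars, for isoleucine and leucine, were not called in any of the 3 comparisons, with log2 changes from -0.02 to 0.13; without empty-vector replicate 1 both were called higher in rescue against empty vector, at 0.18 and 0.15, and Lars also in rescue against knockout, at 0.14. With library totals alone both were called higher in rescue against knockout, at 0.22 and 0.31, and Lars lower in knockout, at -0.18. Mars, for methionine, rose by 0.16 ± 0.06 in knockout (edgeR adjusted p = 0.032), a call that was lost without empty-vector replicate 2 or 3, knockout replicate 2 or 3 or rescue replicate 2 or 3 (adjusted p up to 0.149). It was also lost with library totals alone (0.00202, edgeR adjusted p = 0.978), without the low-count filter (0.11, adjusted p = 0.27) and with only the 2 groups compared (adjusted p = 0.0639). In rescue against empty vector Mars rose by 0.21 ± 0.06 (edgeR adjusted p = 0.00823; 0.0525 without empty-vector replicate 3).

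Of the 12 free cytosolic enzymes, 6 fell and 2 rose in knockout, where 31.1% of all genes were called lower and 29.5% higher. In rescue against knockout 9 rose and 1 fell, where 29.5% of all genes were called higher and 27.3% lower. Nars was at 741, 741 and 756 CPM in empty vector, at 486, 438 and 473 in knockout and at 596, 649.9 and 657 in rescue. Again the 3 groups were apart, with a fall of 0.68 ± 0.07 log2 units in knockout (edgeR adjusted p = 4.54e-08), a rise of 0.45 ± 0.07 in rescue against knockout (edgeR adjusted p = 1.17e-05) and a difference of -0.23 ± 0.07 between rescue and empty vector (edgeR adjusted p = 0.00687). Seryl-tRNA synthetase, Sars, showed the opposite order, at 468, 356 and 408 CPM in empty vector, at 665, 670.1 and 730.4 in knockout and at 539, 560.3 and 555 in rescue. Sars rose in knockout by 0.74 ± 0.08 (edgeR adjusted p = 2.1e-07), fell in rescue against knockout by 0.32 (SE 0.08, edgeR adjusted p = 0.00233) and stayed above empty vector by 0.42 ± 0.08 (edgeR adjusted p = 0.000285). Its fall in rescue was not called with library totals alone (-0.14). Tars, for threonine, fell by 0.49 ± 0.06 in knockout (edgeR adjusted p = 1.9e-06) and rose by 0.37 ± 0.06 in rescue against knockout. Hars, for histidine, and Farsb, a subunit of the phenylalanine enzyme, fell in knockout by 0.29 and 0.30 and rose in rescue against knockout by 0.44 and 0.34. Aars, for alanine, fell by 0.18 ± 0.07 in knockout (edgeR adjusted p = 0.0256), a call that was lost without empty-vector replicate 3 or knockout replicate 1 or 2 (adjusted p up to 0.096), with RLE factors in place of TMM (0.0657) and with only the 2 groups compared (0.0567). The Aars gene overlaps the protein-coding gene Exosc6 on the same strand over 1326 bases, so some counts of either may belong to the other.

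Wars is known as a synthetase that interferon induces. Its libraries were at 536, 549.9 and 563 CPM in empty vector, at 344, 332 and 387 in knockout and at 381, 401 and 431 in rescue. Empty vector was above both other groups, which overlapped. Wars fell by 0.63 ± 0.07 log2 units in knockout (edgeR adjusted p = 2.34e-07) and was lower in rescue than in empty vector (-0.44 ± 0.07, edgeR adjusted p = 3.57e-05). From knockout to rescue it rose by 0.19 ± 0.07 (edgeR adjusted p = 0.0286), which was lost without knockout replicate 1 or 2 or rescue replicate 2 or 3 (adjusted p up to 0.141) and with RLE factors in place of TMM (adjusted p = 0.0563). In a list of 16 other genes that interferon induces, 14 rose and 1 fell in knockout (median 0.65), 15 fell in rescue against knockout (median -2.24) and 14 fell in rescue against empty vector (median -1.42). Of all genes tested, 29.5% were called higher and 31.1% lower in knockout. The share called lower was 27.3% in rescue against knockout and 25.1% in rescue against empty vector. In knockout the antiviral genes Oasl1 and Rsad2 rose by 1.32 ± 0.07 and 2.21 ± 0.09, while Wars fell. In rescue the transcription factor gene Irf7 fell by 2.69 against knockout and by 2.09 against empty vector. Wars2, the mitochondrial tryptophan enzyme, was at 17.9, 18.6 and 16.6 CPM in empty vector, at 16.0, 18.5 and 18.8 in knockout and at 18.4, 16.9 and 17.7 in rescue. Its groups overlapped throughout, and the log2 changes lay between -0.01 and 0.01 with standard errors of 0.09.

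Cars, Farsa and Gars were highest in rescue. Cysteinyl-tRNA synthetase, Cars, was at 324, 278 and 285 CPM in empty vector, at 317, 318 and 305 in knockout and at 423, 416 and 419 in rescue. Rescue was above every other library, by 0.42 ± 0.07 log2 units against knockout (edgeR adjusted p = 1.92e-05) and 0.50 ± 0.07 against empty vector (edgeR adjusted p = 4.56e-06). Farsa, the other subunit of the phenylalanine enzyme, was at 118, 106 and 101 CPM in empty vector, at 94.5, 99.4 and 112 in knockout and at 135, 141 and 147 in rescue. Its rescue libraries were also apart, with rises of 0.46 ± 0.07 against knockout (edgeR adjusted p = 1.71e-05) and 0.38 ± 0.07 against empty vector (edgeR adjusted p = 0.000231). Gars was at 572, 375 and 407 CPM in empty vector, at 535, 543 and 573 in knockout and at 674, 704 and 715 in rescue. Replicate 1 stood apart within empty vector and reached the level of knockout. Gars rose in rescue against empty vector by 0.63 ± 0.13 (edgeR adjusted p = 0.00153) and against knockout by 0.34 ± 0.13 (edgeR adjusted p = 0.0359), the latter lost without any 1 of the knockout or rescue replicates (adjusted p up to 0.0963) and with DESeq2 (0.112). In knockout against empty vector Gars was not called (0.29 ± 0.13, edgeR adjusted p = 0.069), but it was called without empty-vector replicate 1, at 0.50 (edgeR adjusted p = 6.9e-09), and without the low-count filter, at 0.24. Vars was at 900.3, 747 and 762 CPM in empty vector, at 947, 874 and 918 in knockout and at 891, 897 and 899 in rescue. The groups overlapped; its rise in knockout, 0.19 ± 0.08 (edgeR adjusted p = 0.0408), was lost without any 1 of the 9 libraries except empty-vector replicate 1 (adjusted p up to 0.188), with library totals alone (0.683), without the filter (0.143) and with only the 2 groups compared (0.0858). Yars, for tyrosine, rose by 0.20 ± 0.06 in rescue against knockout (edgeR adjusted p = 0.00648) and was not called in the other comparisons. Without empty-vector replicate 1 it was also called in rescue against empty vector, at 0.15. With library totals alone Yars was called higher there too, at 0.15, and lower in knockout, at -0.23.

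**Figure D3:**
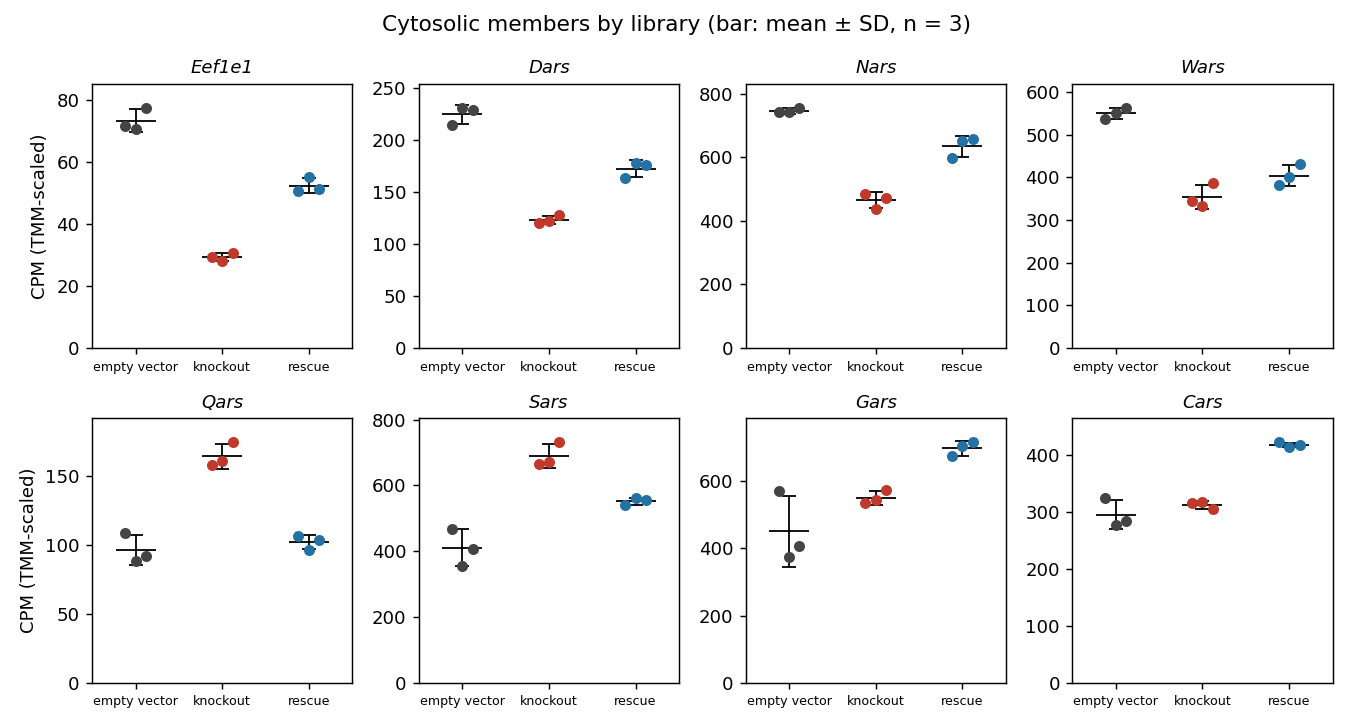
CPM of 8 cytosolic members in the 3 libraries of each group (dots), with mean and SD (bars). Eef1e1, Dars and Nars are lowest in knockout with rescue in between, Qars and Sars highest in knockout, and Gars and Cars highest in rescue; empty-vector replicate 1 of Gars, at 572, lies apart from 375 and 407.

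Within empty vector, replicate 1 had the highest level of the 3 libraries for 17 of the 23 cytosolic members, or 73.9%, against 38.8% of all genes tested. It was also the highest for 26 of 33 genes of the integrated stress response, the pathway of Atf4, and for 5 of 17 mitochondrial members. The other groups were uneven too. Replicate 3 was highest for 60.9% of cytosolic members in knockout, against 37.9% of all genes, and for 56.5% in rescue, against 34.6%. Of the 33 stress-response genes it was highest for 18 in knockout and 16 in rescue. Without empty-vector replicate 1 the number of cytosolic members called higher in rescue against empty vector went from 6 to 12, through Hars, Iars, Lars, Qars, Vars and Yars. That of mitochondrial members called higher in knockout went from 5 to 3. Without it Cars was also called higher in knockout, at 0.16, and Aimp2, Eprs, Lars and Tars2 higher in rescue against knockout, at 0.14 to 0.16. Hars passed the test in rescue against empty vector without rescue replicate 1 as well. Those called lower in knockout were 10 or 11 of the cytosolic set and 8 of the mitochondrial set without any 1 library.

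The mitochondrial set held its largest changes among falls in knockout. Mars2, for methionine, was at 32.1, 38.6 and 36.4 CPM in empty vector, at 19.3, 18.3 and 17.6 in knockout and at 22.9, 20.8 and 20.8 in rescue. Mars2 fell by 0.95 ± 0.09 log2 units in knockout (edgeR adjusted p = 1.63e-08) and was still lower in rescue than in empty vector (-0.73 ± 0.08, edgeR adjusted p = 1.11e-06). The step from knockout to rescue, 0.23 ± 0.09 (edgeR adjusted p = 0.0362), was not called without knockout replicate 2 or 3 or rescue replicate 1 (adjusted p up to 0.145), with DESeq2 (0.1) or with RLE factors in place of TMM (0.056). Nars2, for asparagine, was at 19.4, 18.8 and 18.4 CPM in empty vector, at 10.2, 9.58 and 10.2 in knockout and at 12.5, 14.6 and 17.3 in rescue. The groups were apart, and the rescue libraries were spread more widely (SD 2.40 CPM) than those of the other groups (0.475 and 0.335). It fell by 0.91 ± 0.11 in knockout (edgeR adjusted p = 8.07e-07), rose by 0.55 ± 0.11 in rescue against knockout (edgeR adjusted p = 0.000366) and was lower than in empty vector by -0.36 ± 0.11 (edgeR adjusted p = 0.00839; 0.0802 without rescue replicate 1). Iars2, for isoleucine, was at 133, 149 and 149 CPM in empty vector, at 87.4, 87.2 and 75.2 in knockout and at 85.1, 78.3 and 86.7 in rescue. Both other groups were below empty vector and overlapped each other, with -0.79 ± 0.07 in knockout (edgeR adjusted p = 1.28e-08), -0.78 ± 0.07 in rescue (edgeR adjusted p = 4.28e-08) and 0.01 ± 0.07 between them. Iars2 overlaps Rab3gap2 on the other strand over 2034 bases. Rars2 and Tars2, for arginine and threonine, fell in knockout by 0.61 and 0.64 and were lower in rescue than in empty vector by -0.60 and -0.52. Between knockout and rescue they changed by 0.01 ± 0.09 and 0.13 ± 0.07, neither called. With library totals alone Tars2 and Iars2 were called higher in rescue against knockout, at 0.31 and 0.19, while Rars2 was not.

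Smaller falls in knockout were seen in other mitochondrial members. Hars2, for histidine, was at 38.8, 42.2 and 41.5 CPM in empty vector, at 29.9, 26.7 and 25.6 in knockout and at 33.5, 30.3 and 34.6 in rescue. It fell by 0.58 ± 0.08 in knockout (edgeR adjusted p = 3.06e-06) and rose by 0.26 ± 0.08 in rescue against knockout (edgeR adjusted p = 0.00807; 0.0549 without knockout replicate 3). Hars2 and Hars lie head to head on chromosome 18 and overlap by 198 bases, so a few counts of either may belong to the other. Ears2, for glutamate, fell by 0.41 ± 0.08 in knockout and rose by 0.26 ± 0.08 in rescue against knockout.

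In other mitochondrial genes knockout was the highest group. Yars2, for tyrosine, was at 91.2, 92.3 and 86.9 CPM in empty vector, at 98.3, 105 and 109 in knockout and at 60.5, 57.9 and 58.6 in rescue. The groups were apart, with rescue far below: Yars2 rose by 0.21 ± 0.06 log2 units in knockout (edgeR adjusted p = 0.00484), then stood lower in rescue, by -0.82 ± 0.06 against knockout (edgeR adjusted p = 9.31e-10) and -0.61 ± 0.06 against empty vector (edgeR adjusted p = 1.61e-07). Vars2, for valine, was at 51.2, 53.0 and 49.8 CPM in empty vector, at 62.0, 58.2 and 57.2 in knockout and at 42.8, 39.2 and 41.8 in rescue. It had the same order, at 0.20 ± 0.06 in knockout (edgeR adjusted p = 0.00972), -0.52 ± 0.07 in rescue against knockout (edgeR adjusted p = 1.3e-06) and -0.31 ± 0.06 against empty vector (edgeR adjusted p = 0.000546). The rise of Vars2 was lost without empty-vector replicate 3 or knockout replicate 1 (adjusted p up to 0.0572). Neither rise was called with library totals alone (0.05 for both genes) or without the low-count filter (0.16 for both, edgeR adjusted p = 0.0699 for Yars2 and 0.113 for Vars2). Aars2, for alanine, was at 38.2, 34.6 and 34.6 CPM in empty vector, at 48.1, 44.2 and 50.2 in knockout and at 35.1, 31.8 and 33.3 in rescue. Only knockout stood apart, higher by 0.41 ± 0.07 (edgeR adjusted p = 6.53e-05), and rescue was lower than knockout by -0.51 ± 0.07 (edgeR adjusted p = 6.75e-06).

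**Figure D4:**
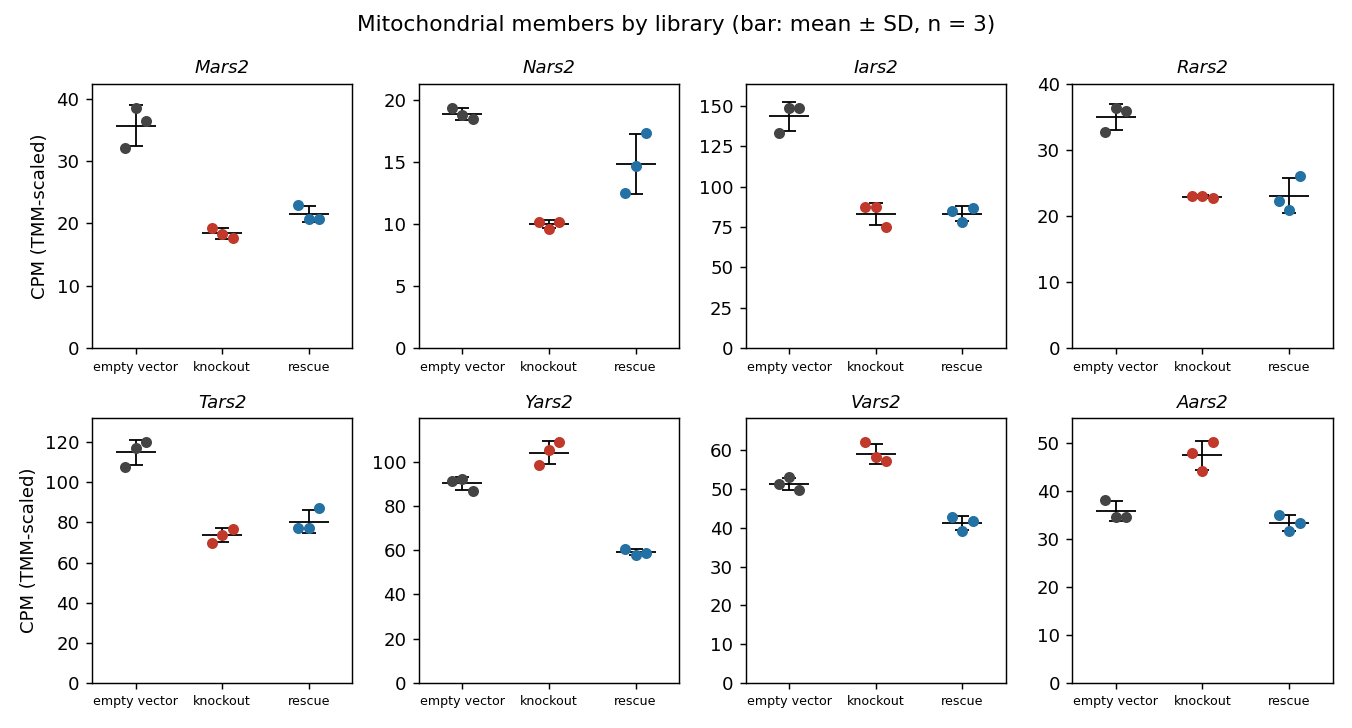
CPM of 8 mitochondrial members in the 3 libraries of each group (dots), with mean and SD (bars). Mars2, Iars2, Rars2 and Tars2 are lower in knockout and rescue than in every empty-vector library, Nars2 lies in between in rescue, and Yars2, Vars2 and Aars2 are highest in knockout, with rescue of Yars2 at 57.9 to 60.5.

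The remaining mitochondrial members gave less stable calls. Pars2, for proline, was at 6.44, 7.97 and 7.46 CPM in empty vector, at 9.09, 8.34 and 9.90 in knockout and at 7.09, 7.17 and 7.23 in rescue. Its rise of 0.34 ± 0.12 in knockout (edgeR adjusted p = 0.0246) was lost without empty-vector replicate 1 or 3 or knockout replicate 1 or 3 (adjusted p up to 0.128), with DESeq2 (0.0575), with library totals alone (0.247) and without the filter (0.104). Its fall in rescue against knockout, -0.36 ± 0.12 (edgeR adjusted p = 0.0196), was lost without knockout replicate 3 or rescue replicate 1 or 2 (adjusted p up to 0.107), with DESeq2 (0.0518), with library totals alone (0.274) and without the filter (0.0752). Cars2, for cysteine, was at 27.5, 34.3 and 30.9 CPM in empty vector, at 32.2, 37.5 and 38.1 in knockout and at 40.9, 33.7 and 37.6 in rescue. The groups overlapped, and Cars2 was called at 0.22 ± 0.09 in knockout (edgeR adjusted p = 0.0462) and at 0.29 ± 0.09 in rescue against empty vector (edgeR adjusted p = 0.016). The former was lost without empty-vector replicate 1 or 3, knockout replicate 2 or 3 or rescue replicate 3 (adjusted p up to 0.192), with DESeq2 (0.0625), with library totals alone (0.596), without the filter (0.105) and with only the 2 groups compared (0.0554), and the latter without rescue replicate 1 (0.105). Lars2, for leucine, ranged from 272 to 394 CPM in empty vector, from 304 to 367 in knockout and from 212 to 285 in rescue. It fell in rescue against knockout, -0.50 ± 0.17 (edgeR adjusted p = 0.0325), but not without empty-vector replicate 1, knockout replicate 1 or 3 or rescue replicate 1 or 3 (adjusted p up to 0.0968) or with library totals alone (0.205). Without empty-vector replicate 2, its highest library, it was called higher in knockout (0.28, edgeR adjusted p = 0.0445), and without rescue replicate 2 lower in rescue than in empty vector (-0.52, edgeR adjusted p = 0.0221), as it was without the filter (-0.40, edgeR adjusted p = 0.011). Fars2 and Sars2, for phenylalanine and serine, were not called in any comparison. Without empty-vector replicate 1 Fars2 was called higher in rescue against empty vector, at 0.26. With library totals alone Fars2 was called higher in rescue, at 0.36 against knockout and 0.22 against empty vector.

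For some amino acids the genes of the 2 compartments were called in opposite directions. In knockout Mars2 fell by 0.95 while Mars rose by 0.16, Aars2 rose by 0.41 while Aars fell by 0.18, and Pars2 rose by 0.34 while Eprs fell by 0.22. Each of these 3 pairs rests on a call that other settings end, namely those of Mars, Aars and Pars2 described above. In rescue against knockout Yars2 fell by 0.82 and Yars rose by 0.20. In rescue against empty vector Mars2 stood at -0.73 and Mars at 0.21. By contrast, Nars and Nars2 fell together in knockout (-0.68 and -0.91), as did Tars and Tars2 (-0.49 and -0.64), Rars and Rars2 (-0.29 and -0.61) and Hars and Hars2 (-0.29 and -0.58).

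Synthetases known as Atf4 targets were called about as often as all genes when both directions are counted together, but not in each direction. Of the 12 such cytosolic genes 5 (41.7%) fell and 2 (16.7%) rose in knockout (median -0.05). There 31.1% of all genes were called lower and 29.5% higher. Of the other 8 cytosolic synthetases 5 fell and 2 rose (median -0.29). In rescue against knockout 6 of the 12 rose and 1 fell (median 0.16), and 6 of the other 8 rose and 1 fell (median 0.33), against 29.5% of all genes called higher and 27.3% lower. Rises among the 12 (50%) were thus above that share and falls (8.33%) below it, which was not tested. In rescue against empty vector 4 of the 12 (33.3%) rose and 2 (16.7%) fell (median 0.11). Of the other 8, 1 rose and 1 fell (median 0.06), where 22.4% of all genes were called higher and 25.1% lower. Of the genes with the Atf4 letters in the windows printed above, Tars fell by 0.49 in knockout, Aars by 0.18 and Gars was not called (0.29 ± 0.13). Atf4 itself was at 828, 698 and 710.0 CPM in empty vector, at 540.0, 542 and 569 in knockout and at 965, 1101 and 1167 in rescue. Its groups were apart: Atf4 fell by 0.44 ± 0.08 in knockout (edgeR adjusted p = 0.00012) and rose in rescue by 0.97 ± 0.08 against knockout (edgeR adjusted p = 6.39e-09) and 0.53 ± 0.08 against empty vector (edgeR adjusted p = 2.6e-05). Eif2ak4, the sensor of uncharged tRNA, changed by -0.27 ± 0.07 in knockout, 0.45 ± 0.07 in rescue against knockout and 0.18 ± 0.07 in rescue against empty vector, each called. Ddit3, a transcription factor downstream of Atf4, fell in knockout by 1.33 ± 0.10 and stayed below empty vector in rescue (-0.66 ± 0.10); the end of Ddit3 overlaps Mars on the other strand by 68 bases. Over the whole list of 33 stress-response genes, 15 rose and 11 fell in knockout (median 0.08), 11 rose and 12 fell in rescue against knockout (median 0.07) and 12 rose and 10 fell in rescue against empty vector (median -0.04). The transcription factor gene Atf5 rose by 1.46 ± 0.08 and Vldlr, a lipoprotein receptor, by 1.27 ± 0.08 in knockout, while Pycr1, a proline synthesis enzyme, fell by 1.02 ± 0.07 (edgeR adjusted p of 4.17e-11 to 7.07e-10). The strongest fall of the list, named after its values were seen, was that of Ppp1r15a, a regulator of the eIF2 phosphatase, from 534 ± 50.7 to 57.4 ± 2.61 CPM (edgeR adjusted p = 4.54e-06). Chac1, a glutathione-degrading enzyme and Atf4 target, rose in rescue against empty vector by 1.14 ± 0.07 (edgeR adjusted p = 2.88e-10).

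Genes that make and use the same tRNAs were counted beside the synthetases. Among all genes tested, 31.1% were called lower and 29.5% higher in knockout. The shares called higher and lower were 29.5% and 27.3% in rescue against knockout, and 22.4% and 25.1% in rescue against empty vector. Of 36 tested genes of tRNA maturation and quality control, 25 fell and 2 rose in knockout (median -0.40), 22 rose and 1 fell in rescue against knockout (median 0.33), and 11 fell and 4 rose in rescue against empty vector (median -0.08). The tRNA methyltransferase subunit Trmt61a fell from 70.4 ± 5.28 to 27.5 ± 1.93 CPM in knockout (SD, n = 3; edgeR adjusted p = 1.44e-10), and Trnt1, which adds the CCA end to which the amino acid is attached, from 63.8 ± 3.28 to 35.1 ± 1.78 CPM (edgeR adjusted p = 3.92e-09). Rpp40, a subunit of the RNase P family, fell by 1.18 ± 0.10 log2 units in knockout and rose by 0.91 ± 0.10 in rescue against knockout. Ssb, the La protein that binds new tRNAs, rose in rescue by 0.77 ± 0.06 against knockout and 0.49 ± 0.05 against empty vector. Of 15 tested cytosolic initiation and elongation factors, 7 fell and 2 rose in knockout (median -0.17), 10 rose and 1 fell in rescue against knockout (median 0.31), and 6 rose and 2 fell in rescue against empty vector (median 0.11). Subunits of eIF2, which brings the initiator tRNA to the ribosome, were among those that fell in knockout, with Eif2s2 at -1.01 ± 0.06 and Eif2s1 at -0.92 ± 0.06. Of 16 mitochondrial translation factors and transamidation subunits, 9 fell and 3 rose in knockout (median -0.26), 8 rose and 3 fell in rescue against knockout (median 0.19), and 7 fell and 3 rose in rescue against empty vector (median -0.15). Gatc, a subunit of the enzyme that makes mitochondrial glutaminyl-tRNA in place of a separate synthetase, fell from 25.5 ± 3.66 to 13.3 ± 1.12 CPM in knockout (edgeR adjusted p = 2.95e-07), and the elongation factor Gfm1 from 152 ± 4.04 to 105 ± 3.59 CPM (edgeR adjusted p = 1.48e-07).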

How the data were processed

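Poly(A) RNA libraries of 9 RENCA samples were analysed, 3 per group, with groups and replicate numbers from the labels. The design text of the series counts fewer knockout libraries than the labels and the table, which hold 3; all were used. The authors deposited raw read counts for each gene, per the file headers; counter and strand setting: not given in the sources used here. Levels of different genes were compared, without a test, on the FPKM columns the authors deposited beside the counts. CASAVA, TopHat2, HISAT and HISAT2 appear, without version or role, in the submitters' processing notes, with mm10 as the build.

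The test was edgeR 4.0.16 (R 4.3.3) over all genes kept by filterByExpr (13326 of 54532), with TMM factors, robust quasi-likelihood fits to all 9 libraries and 1 mean per group. A standard error is the size of the log2 change over the square root of its F. Intervals in the text are SD for levels and SE for log2 changes. DESeq2 1.42.0 and other settings served as alternatives. The fit was run on simulated data in which 200 of the 13326 genes were changed. In the real data 47.5% to 60.6% of genes were called in a comparison. The simulation therefore cannot check the scaling or false calls under such wide change. Libraries of 1 group never agreed within sampling noise (chi-square over its degrees of freedom between 3.525 and 19.49).

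The members and gene lists were chosen with earlier results of these data known. Values in every library are given for the called members with the largest changes in each comparison and direction (4 cytosolic, 3 mitochondrial) and for Wars, Wars2, Eprs, the scaffolds, Atf4 and, chosen after its values were seen, Lars2 as a range. Other members are given by log2 change. From the lists of stress-response, translation, tRNA and interferon-stimulated genes, some of those with the smallest adjusted p are named. Same-numbered libraries of different groups did not deviate together (r of -0.15 to 0.0454 over 9 pairs). The values of 1 mitochondrial member and 1 marker gene, which are included in the counts, are not reported here.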

Additional observations from a re-analysis of the deposited data

How the results depend on the processing

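Over 120 log2 changes (40 genes in 3 comparisons), 5 lost their call with DESeq2, 3 with RLE factors, 4 with only the 2 groups compared and 8 without the low-count filter, which also gained 4; leaving out the mitochondrial genome, an alternative chosen after seeing the data, changed none. With library totals alone 10 calls were lost and 17 gained, and 2 changes not called before, Aimp1 and Vars in rescue against knockout, turned positive and were called, at 0.17 and 0.16. Counts in knockout against empty vector: cytosolic members called higher (5) became 2 with library totals alone, 3 without the low-count filter and 3 with only the 2 groups compared. Mitochondrial members called higher (5) became 3 with DESeq2, 1 with library totals alone and 1 without the filter. In rescue against knockout, library totals alone gave 21 cytosolic members higher and 1 lower, and 9 mitochondrial members higher and 3 lower; in rescue against empty vector they gave 2 mitochondrial members higher. The cause of these shifts was not tested.

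Leaving out 1 library at a time gave, in knockout against empty vector, 2 to 7 cytosolic members higher and 10 to 11 lower, and 2 to 6 mitochondrial members higher and 8 lower in each fit. In rescue against knockout it gave 11 to 16 and 2, and 3 to 6 and 3 to 5. In rescue against empty vector it gave 5 to 12 and 4, and 0 to 2 and 7 to 9. No called change turned its direction in these fits, while values that were not called changed sign 8, 17 and 11 times in the 3 comparisons. All genes called ranged from 7361 to 8426, 6955 to 8283 and 5278 to 6959.

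With the replicate number as a block, which the labels do not tie to a culture or day, 2 calls were lost: Cars2 in knockout (0.22, edgeR adjusted p = 0.0629) and Mars2 in rescue against knockout (0.23, edgeR adjusted p = 0.0541). The counts under the block were 5 and 11 cytosolic members higher and lower in knockout.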
